A study of Mus musculus with 30 samples.

Results

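NIH3T3-CG cells that carried a doxycycline-inducible Prrx1 construct and received no doxycycline were compared with NIH3T3-CG cells transfected with a control plasmid. The 6 libraries were chosen by their labels, 3 uninduced transduced and 3 control transfections of the Prrx1 and Snai1 experiment, out of 30 libraries in the series. NIH3T3 is an immortalised line of mouse embryonic fibroblasts. What the suffix CG stands for is not given. The series as a whole asks how fluctuations of transcription factors relate to the variability of the Hedgehog response, and none of the 6 libraries is labelled as given doxycycline or Prrx1 by transfection. Both groups share the cell line, the release of cells from plates with trypsin and the column extraction of total RNA. They differ in how foreign DNA entered the cells, transduction of Prrx1 against transfection of a control plasmid, and the labels do not say whether the libraries were prepared and sequenced together. Cell preparation, construct, library preparation and batch therefore cannot be told apart in any difference given here. Depth differed too, and the number of calls with counts thinned to the shallowest library is given below. No untransduced and untransfected library was analysed here, and nothing says whether the replicates were separate cultures, so p-values measure the spread between these samples, which may be technical.

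Pairs of groups with which this difference was set side by side were doxycycline-induced transduced cells against cells transfected with Prrx1, which compares the same 2 preparations with no shared library, and the control-plasmid libraries of the Jun and Egr1 experiment and of the Srebf2 experiment against the Prrx1 and Snai1 controls. Each further group had 3 libraries.

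Fibroblasts make and remodel the collagen-rich matrix of connective tissue, and cultured NIH3T3 cells respond to serum and to Hedgehog ligands. Prrx1 is a homeodomain transcription factor of limb and craniofacial mesenchyme. Most mRNAs end in a poly(A) tail, whereas mRNAs of the replication-dependent histones, made in S phase, end in a stem-loop and lack that tail. The labels call both groups mRNA sequencing. Examples of the stem-loop are shown because these histones had the highest median rise of the gene lists examined. Capitals mark the paired stem and lower case the loop. All were read 5′ to 3′ on the sense strand of the annotated transcript (mm10).

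Hist2h2ac, H2A, chromosome 3: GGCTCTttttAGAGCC
Hist2h2aa1, H2A, chromosome 3: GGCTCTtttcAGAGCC
Hist1h4d, H4, chromosome 13: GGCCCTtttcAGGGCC
H2afx, H2A.X, chromosome 9: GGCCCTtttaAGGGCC
Hist2h3c1, H3, chromosome 3: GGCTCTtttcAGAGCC

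The 3 uninduced transduced libraries held 17129632, 8506132 and 11063242 estimated counts, against 19574031, 20961571 and 20918711 in the 3 controls. mScarlet, the fluorescent protein sequence the authors added to the mouse transcripts, was at 0 in every uninduced transduced library, where 3 counts would be 0.176, 0.355 and 0.273 counts per 1000000 estimated counts (CPM), against 13111, 9208 and 9941 CPM in controls. The labels do not say which construct carried it. GFP, the other added sequence, had 84.05, 83.6 and 73.04 CPM in uninduced transduced cells, against 214, 187 and 186 CPM in controls. Transcripts annotated as retaining an intron took 5.39, 6.43 and 6.35% of the counts in uninduced transduced libraries, against 2.86, 3.11 and 3.05% in controls, and 2.58 to 3.32% in all 24 transfection libraries of the series. Over transcripts longer than 3000 bases, the mean amount by which effective length fell short of transcript length, which tracks fragment length, was 161, 174 and 165 bases in uninduced transduced libraries against 250.2, 243 and 245 bases in controls. For both measures the groups did not overlap, and the exact 2-sided permutation test gave p = 0.1, the smallest possible with 3 against 3. The induced transduced libraries, at 6.10 to 6.41% and 186 to 188 bases, lay on the same side of all 24 transfection libraries.

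**Figure D1:**
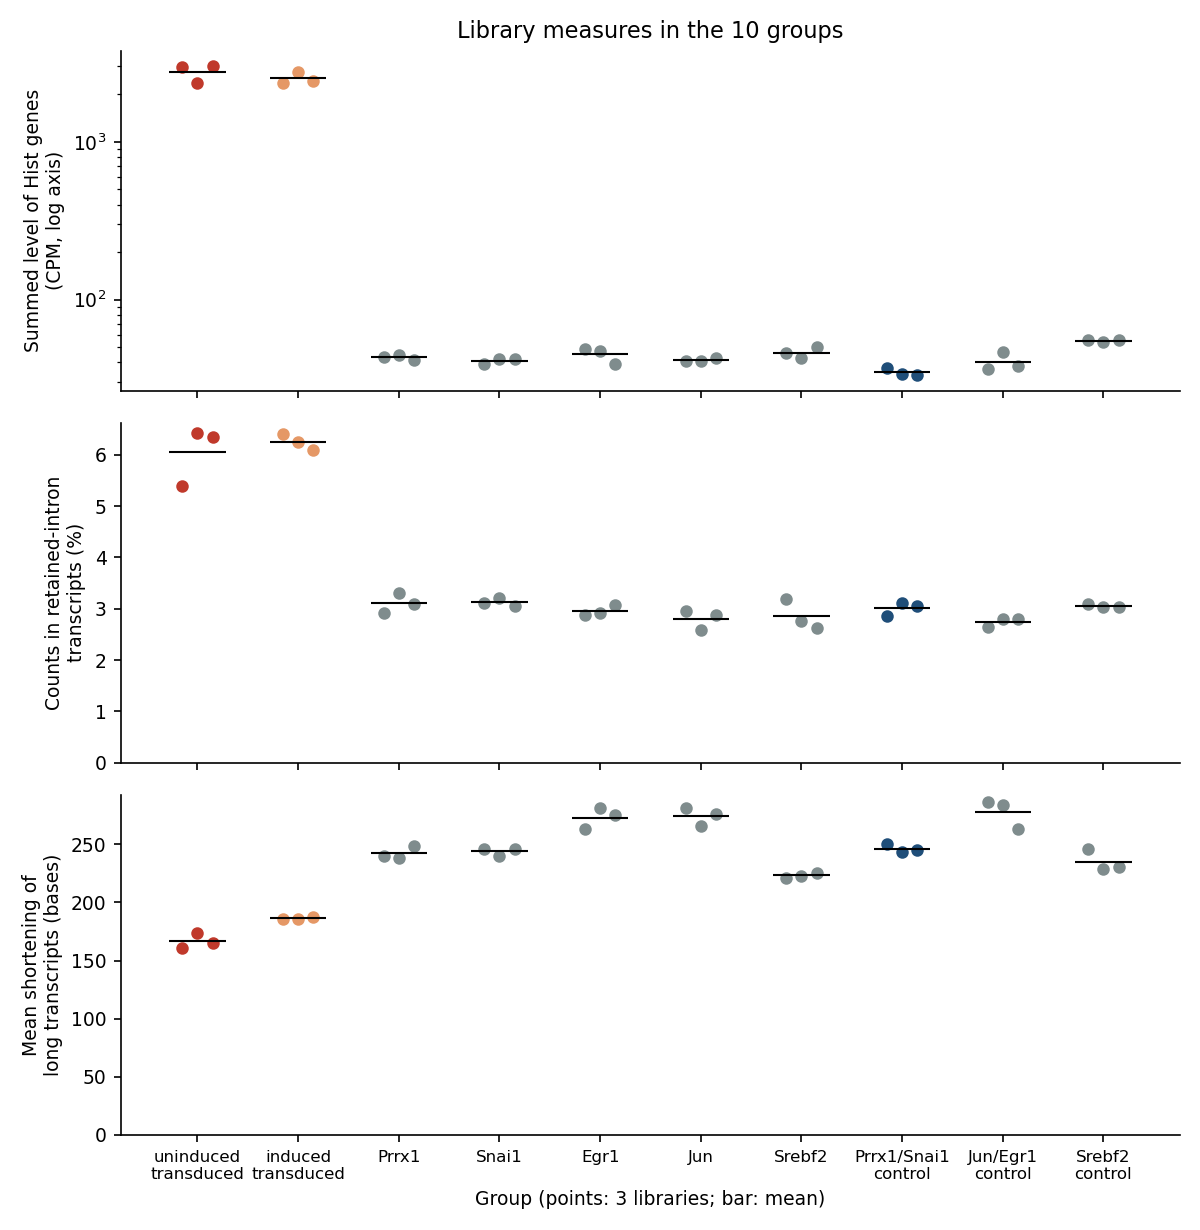
Summed CPM of histone genes (log axis), percent of counts in retained-intron transcripts and mean shortening of the effective length in bases, for each library (points) of the 10 groups. The 6 transduced libraries lie apart from the 24 transfection libraries in all 3 panels, with histone sums of 2355 to 3012 CPM against 33.2 to 55.5 CPM.

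Differences between the 2 preparations also ran with base composition and transcript length. The decile of tested genes with the lowest GC content had a median log2 fold change (uninduced transduced over control) of 1.11, and the decile with the highest GC content one of −0.88. The decile of the longest genes had a median of 0.79 and the decile next to the shortest one of −0.59. In both comparisons between control sets, all 10 deciles of GC content had medians between −0.02 and 0.06. Their deciles of the longest genes had medians of 0.10 and 0.11, and their other length deciles lay between −0.05 and 0.05. A fit with an offset per library for GC content and length, chosen after the data were seen, left medians between −0.06 and 0.21 over the 10 deciles of GC content. Over length, the decile of the shortest genes had a median of −0.46 with the offset and −0.08 without it, and the other 9 lay between −0.07 and 0.18 with it. The offset therefore did not level the shortest genes. Of the 9431 genes called without the offset, 1392 (14.8%) took the other sign with it, but 18 of 2039 called genes over 4-fold did. Counts and medians with this offset are given beside the gene lists below, and a gene's value with it where the log2 fold change moved by over 1.5 times. Whether the trends arose in library preparation or in the cells was not tested.

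**Figure D2:**
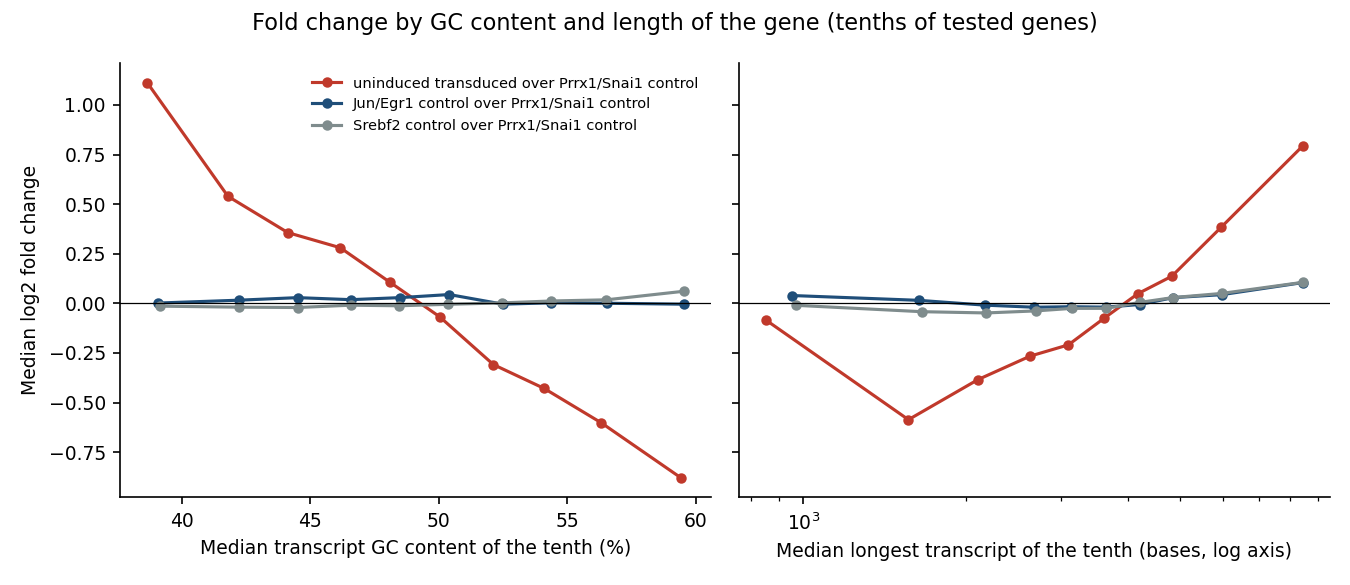
Median log2 fold change of genes in deciles of GC content (left) and of longest transcript length (right), for uninduced transduced cells against controls and for both comparisons between control sets. For uninduced transduced cells the median goes down across GC deciles, 1.11 in the lowest and −0.88 in the highest, while the control sets stay near 0.

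Of 13855 genes tested between uninduced transduced cells and controls, 9431 (68.1%) were called at an adjusted p under 0.05. There were 4770 genes (34.4%) that rose and 4661 (33.6%) that fell in uninduced transduced cells, and 5092 (36.8%) were called with more than a 2-fold change, 20.9% of all tested genes higher and 15.9% lower. With the GC and length offset 63.6% were called, 35.6% higher and 28% lower. Counts in the gene lists are to be read against these shares, and a share near them is no result about a list. The 3 libraries of 1 group did not overlap those of the other for 74.3% of tested genes. In bulk libraries, fewer cells of a type and less RNA per cell cannot be told apart. Over all tested genes the median log2 fold change was 0.02, and 0.10 with the GC and length offset. Of the tested genes, 7961 (57.5%) were called and lay outside the range of all 9 control-plasmid libraries of the series, on the side of their call. They lay above it for 30.1% of tested genes and below it for 27.4%. Between control sets, calls over 2-fold numbered 481 of 13209 genes (3.64%) between Jun and Egr1 controls and Prrx1 and Snai1 controls, and 170 of 12751 (1.33%) between Srebf2 controls and Prrx1 and Snai1 controls. All of these comparisons share the 3 Prrx1 and Snai1 control libraries. The shares called at any size were 23.3% and 13.2% in the 2 comparisons between control sets, which is 3079 and 1688 genes. The first count was 5204 without Prrx1 and Snai1 control replicate 1, 1717 without replicate 3, and 1789, 1755 and 1943 without Jun and Egr1 control replicates 1, 2 and 3. The second count was 3771, 1094 and 754 without Prrx1 and Snai1 control replicates 1, 2 and 3, and 982, 333 and 376 without Srebf2 control replicates 1, 2 and 3.

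Replication-dependent histone genes rose, with the highest median fold change of the 45 gene lists examined. Their products package newly copied DNA. Over all genes named Hist, the summed level was 2970.0, 2355 and 3012 CPM in uninduced transduced libraries, against 36.9, 33.5 and 33.2 CPM in controls, an 80.5-fold ratio of means. Of the 22 listed histone genes that were tested, 21 rose, against 34.4% of all tested genes, and the median log2 fold change was 5.55 (with the offset 5.05). The linker histone gene Hist1h1b (chr13:21779883-21780625, minus strand, mm10 as for all positions here) had 76.4, 44.2 and 57.03 CPM in uninduced transduced cells, against 0.257, 0.576 and 0.192 CPM in controls, a log2 fold change of 7.34 ± 0.36 (SE, adjusted p = 4.65e-07). Each uninduced library held more Hist1h1b RNA than any control. Hist1h1a, another linker histone gene, had 22.03, 12.5 and 13.7 CPM in uninduced transduced cells, against 0.103, 0 and 0.0481 CPM in controls, and Hist2h2bb, an H2B gene, had 188, 103 and 172 CPM in uninduced transduced cells, against 0.154, 0.0960 and 0.289 CPM in controls. Their log2 fold changes were 8.10 ± 0.51 and 9.62 ± 0.40. The listed exception was Hist2h2be, an H2B gene known in human cells to give polyadenylated mRNA too, with 0.589, 0 and 0.819 CPM in uninduced transduced cells, against 1.70, 1.01 and 0.962 CPM in controls, a difference that did not pass the test (adjusted p = 0.111).

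Histone copies share sequence, which limits how far counts can be assigned to 1 copy. Hist2h2ac, Hist2h2aa1, Hist2h2aa2, Hist1h2bb, Hist1h2ab, Hist1h2bn, Hist1h2ap and Hist1h2bf, all among the 15 protein-coding genes of greatest rise, have between 0 and 52.3% of their 31-base words in no other gene, so their single-gene values are uncertain. Hist2h2ac had 41.5, 16.4 and 27.6 CPM in uninduced transduced cells, against 0, 0 and 0.0481 CPM in controls, which is 1 count in all 3 controls together and a count ratio of 1925, with a 95% interval of 345 to 76117 that covers counting error only. The stem-loop shown above was searched for on the sense strand of annotated transcripts by the histone stem-loop consensus of 16 bases, which all the sequences above match. It was found in 38 tested genes (0.274% of those tested), of which 36 rose and 1 fell, with a median log2 fold change of 5.51. One of these stem-loops was counted for a pair of genes, since annotated transcripts of Trim17, a ubiquitin ligase gene, and of Hist3h2a overlap on chromosome 11 and share it. Their log2 fold changes, 1.89 ± 0.33 and 1.64 ± 0.37, are uncertain for the same reason. Counted once, it leaves 37 genes, of which 35 rose and 1 fell, with a median of 5.54. The gene that fell was H2afx, with a log2 fold change of −0.79 that turned to 0.27 with the offset. Hist2h3c1, which holds the same stem-loop, had 1.09, 0 and 1.66 CPM in uninduced transduced cells, against 1.64, 1.14 and 0.512 CPM in controls, a difference that did not pass the test. Among genes named Hist in whose annotated transcripts these letters were not found, 23 of 24 rose, with a median log2 fold change of 6.49. A gene that is high only in uninduced transduced cells passes the filter for testing through that group alone. The numbers of genes with and without the stem-loop therefore describe those that passed.

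Outside the histones, a set of genes was near 0 in 1 preparation and plainly present in the other. Ccnb1ip1 (chr14:50789248-50807732), which encodes a cyclin-binding ubiquitin ligase needed for meiotic crossing over, had 228, 154 and 165 CPM in uninduced transduced cells, against 0.411, 0.240 and 0.0481 CPM in controls (log2 fold change 9.52 ± 0.36, adjusted p = 2.22e-07). Sorbs2 (chr8:45507788-45827906), an adaptor of the actin cytoskeleton, had 71.1, 84.3 and 79.03 CPM in uninduced transduced cells, against 0.154, 0.192 and 0 CPM in controls (log2 fold change 9.25 ± 0.31, adjusted p = 5.58e-08). For both genes the lowest uninduced transduced library lay far above the highest control. Serpinb2 (chr1:107511423-107535478), an inhibitor of plasminogen activators, had 6.17, 10.1 and 8.64 CPM in uninduced transduced cells, against 0 CPM in each control. Set against a floor of 3 counts over the 3 controls, Serpinb2 was at least 159-fold higher in uninduced transduced cells. AC125149.1, on an unplaced scaffold, and 1700047I17Rik2 were the other genes among the 15 of greatest rise, and none of the 31-base words of 1700047I17Rik2 is found in it alone, so its value is uncertain. Below those 15, and chosen after their values were seen, Ppp1r3a (chr6:14713977-14755274), a glycogen-targeting subunit of protein phosphatase 1, had 124, 131 and 140.4 CPM in uninduced transduced cells, against 0.617, 0.720 and 1.35 CPM in controls. Brinp3 (chr1:146494760-146902472) had 69.1, 71.4 and 70.8 CPM in uninduced transduced cells, against 0.206, 0.528 and 0.722 CPM in controls, and Tnfsf18, a cytokine of the tumour necrosis factor family, had 7.40, 14.7 and 7.82 CPM in uninduced transduced cells, against 0, 0.0960 and 0.0962 CPM in controls. Log2 fold changes of these were 7.11 ± 0.21, 7.07 ± 0.25 and 7.004 ± 0.55, and no library of 1 group reached the range of the other. Over all 9 control-plasmid libraries of the series, levels reached 2.995 CPM for Sorbs2, 4.69 CPM for Ppp1r3a and 8.25 CPM for Brinp3, above those of the 3 controls compared here and below every uninduced transduced library.

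Genes nearly lost from uninduced transduced cells included several that encode secreted or membrane proteins. Sema7a (chr9:57940112-57962865), a membrane-anchored semaphorin, had 3.29, 5.21 and 5.28 CPM in uninduced transduced cells, against 515, 484 and 481 CPM in controls (log2 fold change −6.86 ± 0.18, adjusted p = 2.72e-08), and spanned 154 to 515 CPM over all 9 control-plasmid libraries. Dcn and Lum, which lie near each other on chromosome 10 (chr10:97479609-97518143 and chr10:97565128-97572703) and encode the small leucine-rich proteoglycans decorin and lumican of collagen fibrils, fell together. Dcn had 3.41, 4.62 and 4.27 CPM in uninduced transduced cells, against 174, 173 and 160.2 CPM in controls (log2 fold change −5.46 ± 0.14, adjusted p = 2.72e-08), and Lum had 1.12, 1.30 and 0.0910 CPM in uninduced transduced cells, against 38.7, 45.8 and 43.8 CPM in controls (log2 fold change −5.71 ± 0.37, adjusted p = 2.59e-06). Cck (chr9:121489824-121495694), the cholecystokinin peptide gene, had 0.235, 0 and 0.182 CPM in uninduced transduced cells, against 47.98, 32.9 and 31.9 CPM in controls, with a log2 fold change of −7.84 ± 0.39. Stc1, which encodes the secreted glycoprotein stanniocalcin, had 1.47, 0 and 1.36 CPM in uninduced transduced cells, against 35.1, 45.3 and 42.97 CPM in controls, and the receptor genes Gpr149 and Gfra2, the second encoding a coreceptor for neurturin, had log2 fold changes of −4.92 ± 0.14 and −6.53 ± 0.51. The fitted value for Gfra2 was −10.39 without uninduced replicate 1, where the remaining uninduced libraries are at 0. Rgs16, a regulator of G protein signalling, had 3.47, 5.56 and 4.27 CPM in uninduced transduced cells, against 122, 131 and 131 CPM in controls (log2 fold change −4.96 ± 0.15, adjusted p = 4.00e-08).

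Il33, an alarmin cytokine gene, held 1 count in the 3 uninduced transduced libraries together and 330 in controls, a count ratio of 197 in favour of controls (95% interval 35.1 to 7808, counting error only). Ngef, an exchange factor for small GTPases, had 0.705, 0 and 0.364 CPM in uninduced transduced cells, against 20.7, 14.4 and 12.9 CPM in controls. Crtap, a component of the collagen prolyl-hydroxylation complex, was at 0 in each uninduced transduced library, against 6.53, 5.09 and 6.78 CPM in controls, and was at least 74.5-fold lower by the floor of 3 counts over the group. The remaining genes among the 15 of greatest fall were the olfactory receptor gene Olfr805 (log2 fold change −5.42 ± 0.45) and 3 whose sequence is largely shared with other genes. These 3, with uncertain values, were Rps27rt, at least 104-fold lower, a second Gcat entry that overlaps the main one, at least 100.3-fold lower, and Rps12-ps3, with 10.5, 10.02 and 2.59 CPM in uninduced transduced cells, against 1020.4, 887 and 923 CPM in controls.

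**Figure D3:**
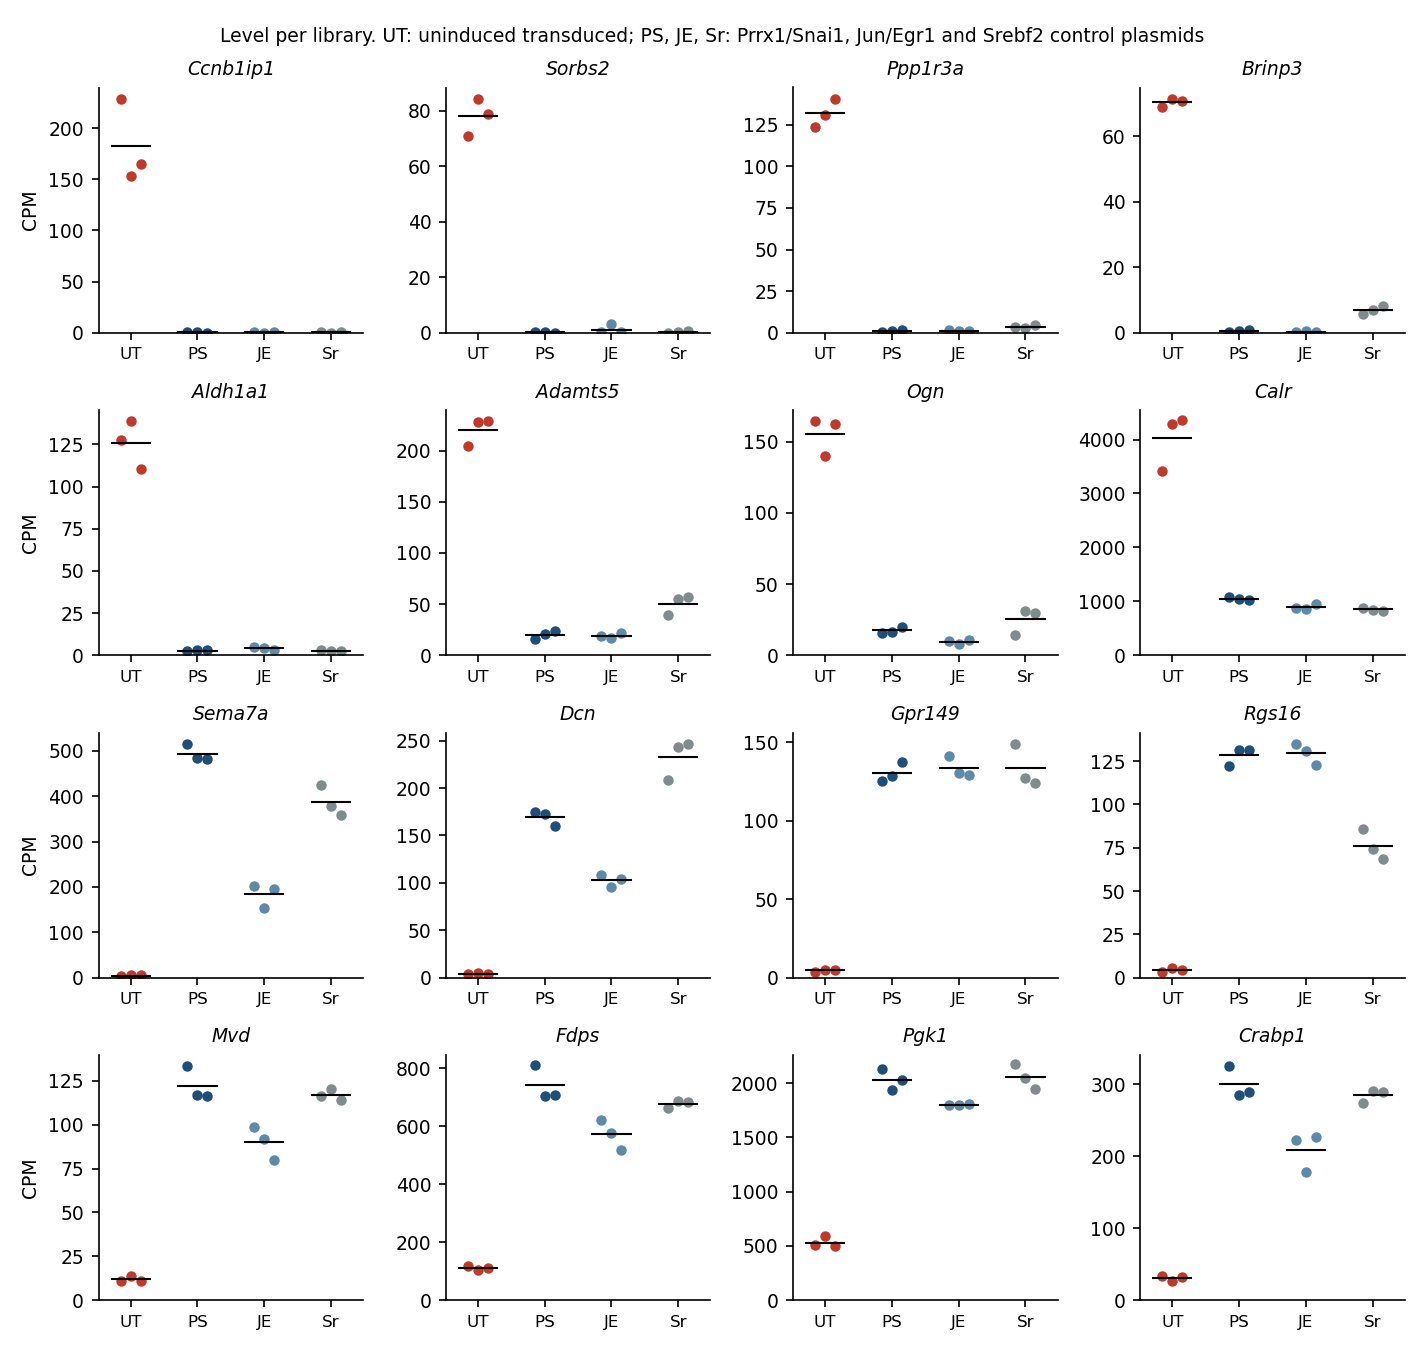
Level in CPM of 16 genes in each library (points, bar at the mean; each panel has its own axis from 0), for uninduced transduced cells (UT) and the control plasmids of the Prrx1 and Snai1 (PS), Jun and Egr1 (JE) and Srebf2 (Sr) experiments. Ccnb1ip1 reaches 154 to 228 CPM in uninduced transduced cells and stays under 1 CPM in the Prrx1 and Snai1 controls, whereas Sema7a shows the opposite order with 3.29 to 5.28 CPM against 481 to 515 CPM.

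The enzymes of cholesterol synthesis fell in uninduced transduced cells. SREBP-2, encoded by Srebf2, switches these genes on when sterols in the endoplasmic reticulum run low. All 24 tested members of the list of cholesterol synthesis and uptake fell, against 33.6% of all tested genes, 20 of them over 2-fold, with a median log2 fold change of −1.79. With the GC and length offset 23 fell and the median was −1.64. Below all 9 control-plasmid libraries of the series lay 23 of the 24, against 27.4% of all tested genes that were called lower and lay there. Mvd (chr8:122433601-122443422), mevalonate diphosphate decarboxylase, had 11.2, 13.6 and 10.8 CPM in uninduced transduced cells, against 134, 117 and 116 CPM in controls (log2 fold change −3.45 ± 0.13, adjusted p = 1.21e-07). Lss, which closes the sterol rings, had 41.8, 59.1 and 49.7 CPM in uninduced transduced cells, against 338, 389 and 364 CPM in controls (log2 fold change −2.94 ± 0.13, adjusted p = 2.16e-07), and Fdps, farnesyl diphosphate synthase, had 117, 105 and 111 CPM in uninduced transduced cells, against 810.2, 703 and 709 CPM in controls (log2 fold change −2.81 ± 0.12, adjusted p = 2.14e-07). The 3 uninduced transduced libraries lay below every control for each of these enzymes.

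Values varied along the pathway. Hmgcs1, an early enzyme of the mevalonate pathway, had 163, 164 and 164 CPM in uninduced transduced cells, against 315, 442 and 438 CPM in controls, a log2 fold change of −1.35 ± 0.13. Acat2, Nsdhl and Insig1, the last encoding the protein that retains the SREBP complex in the endoplasmic reticulum, had log2 fold changes of −3.32 ± 0.17, −2.71 ± 0.14 and −2.38 ± 0.11. Sqle, squalene epoxidase, had a log2 fold change of −1.89 ± 0.10. Srebf2 itself had 281, 351 and 303 CPM in uninduced transduced cells, against 550.01, 567 and 547 CPM in controls (log2 fold change −0.91 ± 0.10), but its call was lost with the offset (−0.12, adjusted p = 0.174).

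Genes of fatty acid and glycerolipid synthesis mostly fell too: 15 of 22 tested members fell and 1 rose. Of all tested genes 33.6% fell and 34.4% rose. The list had a median log2 fold change of −0.87. With the offset 1 rose and 16 fell, with a median of −0.53. Fasn, fatty acid synthase, had 147, 205 and 169 CPM in uninduced transduced cells, against 643, 733 and 685 CPM in controls (log2 fold change −2.06 ± 0.12, adjusted p = 1.03e-06). Acly, which supplies cytosolic acetyl-CoA, had a log2 fold change of −1.81 ± 0.10, and Scd2, a desaturase, one of −1.91 ± 0.11. The member that rose was Me1, the cytosolic malic enzyme that yields NADPH, with 147, 167 and 168 CPM in uninduced transduced cells, against 69.1, 71.9 and 69.7 CPM in controls (log2 fold change 1.12 ± 0.09, adjusted p = 6.02e-06). Vldlr, the very-low-density lipoprotein receptor, had 1.06, 1.07 and 1.001 CPM in uninduced transduced cells, against 8.90, 11.6 and 12.2 CPM in controls (log2 fold change −3.44 ± 0.25).

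Glycolytic enzymes and genes of the hypoxia response mostly fell as well. Hypoxia-inducible factor binds a short core sequence near many of these genes when oxygen is low. Of 31 tested members of the list, 25 fell, 18 of them over 2-fold, and 2 rose. Of all tested genes 33.6% fell and 34.4% rose. The list had a median log2 fold change of −1.51. With the GC and length offset 22 fell and 7 rose, with a median of −0.78, so the offset moved the median by over 1.5 times. Promoter windows of the genes described next are shown because the core letters ACGTG, or CACGT on the other strand, stand in members that fell and in members that rose. Each line gives 30 bases 5′ to 3′ on the gene's strand from RefSeq (GRCm38.p6), with the match in capitals.

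Pgk1, chrX:106186938-106186967, plus strand: gcgtcgtgcaggACGTGacaaatggaagta
Ldha, chr7:46845744-46845773, plus strand: cggcccagcctaCACGTgggttcccgcacg
Slc2a1, chr4:119108697-119108726, plus strand: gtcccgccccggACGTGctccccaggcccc
Bnip3, chr7:138909597-138909626, minus strand: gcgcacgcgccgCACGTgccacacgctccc
Pfkfb3, chr2:11553972-11554001, minus strand: ctccgcgccgtgACGTGccaagctgtgacc
Car9, chr4:43506996-43507025, plus strand: ctatttccgatgCACGTacagcccgtccac

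Pgk1 (chrX:106187100-106203699), phosphoglycerate kinase, had 509, 588 and 497 CPM in uninduced transduced cells, against 2127, 1938 and 2029 CPM in controls (log2 fold change −2.01 ± 0.11, adjusted p = 5.26e-07). Ldha, lactate dehydrogenase A, had 537, 578 and 498 CPM in uninduced transduced cells, against 2041, 1879 and 2007 CPM in controls (log2 fold change −1.95 ± 0.10, adjusted p = 5.52e-07). Slc2a1, the glucose transporter GLUT1, had 143, 173 and 155 CPM in uninduced transduced cells, against 475, 454 and 473 CPM in controls (log2 fold change −1.65 ± 0.10, adjusted p = 1.13e-06, and a log2 fold change of −0.93 with the offset). For these 3 genes the lowest control was more than 2-fold above the highest uninduced transduced library. Bnip3, a mitophagy receptor induced by hypoxia, had a log2 fold change of −2.52 ± 0.12, and Vegfa, the endothelial growth factor, one of −1.75 ± 0.10, or −1.05 with an effective-length offset. Tpi1, triosephosphate isomerase, had −2.52 ± 0.13, Gapdh −1.71 ± 0.17 (−1.13 with the offset), which was −2.64 with protein-coding transcripts alone, and Mif, a cytokine gene induced by hypoxia, −2.66 ± 0.17.

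Both members that rose carry the same core. Pfkfb3, which makes the allosteric activator of phosphofructokinase, had 25.96, 31.4 and 28.01 CPM in uninduced transduced cells, against 7.71, 9.28 and 8.75 CPM in controls (log2 fold change 1.65 ± 0.14, adjusted p = 6.99e-06), and its value was 2.73 with an effective-length offset. Car9, carbonic anhydrase IX, had 5.02, 7.55 and 5.96 CPM in uninduced transduced cells, against 1.65, 2.78 and 2.02 CPM in controls (log2 fold change 1.44 ± 0.29, or 2.19 with the offset), although its value was −0.05 with an effective-length offset and its call was lost on log TPM values. In the RefSeq promoter table, 250 bases before to 50 after each start, ACGTG on either strand was found for 21.8% of 27025 genes and for 22 of 32 listed members in the table (68.8%). Tested members with the letters numbered 21, of which 17 fell and 2 rose, with a median log2 fold change of −1.65. Of 9 tested members without them, 7 fell and none rose, with a median of −0.84. A match describes these windows and is not a binding site, and both subsets had negative medians. Of 18 members of the cholesterol list in the same promoter table, 4 (22.2%) held ACGTG. The letters TCACNCCAC of the sterol response element stood in 1 of the 18 (5.56%), against 1.44% of all genes there.

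Genes of cytosolic ribosomal proteins mostly fell: 5 rose and 35 fell of 45 tested, against 34.4% and 33.6% of all tested genes. The median log2 fold change was −1.28. With the offset 6 rose and 35 fell, with a median of −0.96. Their median longest transcript of 1128 bases falls in the decile of the shortest genes, which the offset did not level. As a share of all counts, ribosomal protein genes took 3.38, 2.42 and 2.78% in uninduced transduced libraries against 5.53, 4.58 and 4.75% in controls (exact 2-sided permutation p = 0.1, the smallest possible). Rpl37 had 49.9, 18.2 and 31.2 CPM in uninduced transduced cells, against 492, 352 and 370.4 CPM in controls, and Rpl27 had 61.3, 20.3 and 38.4 CPM in uninduced transduced cells, against 501, 459.6 and 468 CPM in controls. Their log2 fold changes were −3.65 ± 0.40 and −3.61 ± 0.41. Rps7 was 1 of the 5 that rose, with 347, 285 and 286 CPM in uninduced transduced cells, against 37.6, 31.3 and 31.5 CPM in controls (log2 fold change 3.12 ± 0.14, adjusted p = 2.63e-07). Ribosomal protein genes have many processed pseudogenes, and 69.1% of the 31-base words of Rps7 are found in no other gene.

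Nuclear genes of the respiratory chain mostly fell: 1 rose and 24 fell of 34 tested, against 34.4% and 33.6% of all tested genes. The median log2 fold change was −0.74. With the offset 5 rose and 19 fell, with a median of −0.53. Ndufa4, a subunit bound to cytochrome c oxidase, had 42.8, 16.8 and 19.8 CPM in uninduced transduced cells, against 250.2, 199 and 203 CPM in controls (log2 fold change −3.07 ± 0.39, adjusted p = 0.000519), and Cox7c, a subunit of that oxidase, had a log2 fold change of −1.75 ± 0.16 (−3.68 with the offset). Genes encoded by mitochondrial DNA took 3.34, 1.20 and 1.92% of counts in uninduced transduced libraries and 2.45, 2.03 and 2.07% in controls, which overlap (exact 2-sided permutation p = 1). Of 13 such genes, 3 rose and 1 fell, against 34.4% and 33.6% of all tested genes. Their median log2 fold change was −0.30. With the offset none rose and 7 fell, with a median of −2.34, and these are also short genes, with a median of 784 bases. Their median GC content of 37.1% lies in the lowest decile, whose median went from 1.11 to 0.05 with the offset. The gene that fell without the offset was mt-Co2, with 221, 142 and 94.8 CPM in uninduced transduced cells, against 2807, 1879.6 and 2405 CPM in controls, and none of its 31-base words is found in it alone. Gm20594, a nuclear gene on chromosome 6 of which 10.02% of the 31-base words are shared with the mitochondrial ribosomal RNA mt-Rnr2, had 7538, 4213 and 5179 CPM in uninduced transduced cells, against 87.98, 71.3 and 80.2 CPM in controls. Its log2 fold change was 6.08, or 2.51 with the offset, and it was named after its values were seen.

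Matrix genes included some of wide rise and some of wide fall. Of 29 glycoproteins and proteoglycans tested, 11 rose and 12 fell, against 34.4% and 33.6% of all tested genes, with a median log2 fold change of 0.01. With the offset 15 rose and 12 fell, with a median of 0.31. Beside Dcn and Lum, described above, the proteoglycan gene Ogn, encoding osteoglycin, moved the other way with 165, 140.2 and 163 CPM in uninduced transduced cells, against 15.7, 16.6 and 19.8 CPM in controls (log2 fold change 3.10 ± 0.13, adjusted p = 2.14e-07, and a log2 fold change of 2.004 with the offset). Vcan, encoding versican, had 984, 1140.04 and 1128 CPM in uninduced transduced cells, against 264, 379 and 381 CPM in controls (log2 fold change 1.59 ± 0.14, 0.45 with the offset). Tnc, which encodes tenascin C of wounds and embryonic matrix, had 219, 249.7 and 222 CPM in uninduced transduced cells, against 936, 1366 and 1321 CPM in controls (log2 fold change −2.46 ± 0.15, adjusted p = 9.29e-07). Ltbp2, a microfibril protein gene, had a log2 fold change of −2.81 ± 0.15, while Sparc, a collagen-binding glycoprotein gene, had 1.02 ± 0.10 (1.63 with the offset) and Thbs1, thrombospondin 1, 0.73 ± 0.20, or 0.44 without control replicate 1. Fn1, fibronectin, had 5771, 7449 and 7015 CPM in uninduced transduced cells, against 7482, 9633 and 9093 CPM in controls (log2 fold change −0.45 ± 0.11), a value that was 0.01 with a GC offset alone and 0.67 on log TPM values.

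Among collagens 6 rose and 8 fell of 17 tested, against 34.4% and 33.6% of all tested genes. With the offset 10 rose and 3 fell. The median log2 fold change was −0.15 without the offset and 0.49 with it. Col1a1, the main fibrillar chain, had 1892, 2081 and 1785 CPM in uninduced transduced cells, against 1952, 2016 and 2021 CPM in controls. The difference did not pass the test (log2 fold change −0.13 ± 0.09, adjusted p = 0.247). With the offset Col1a1 was called higher, at 0.57 (adjusted p = 0.000135). Col3a1, the type III chain, had 508, 520.4 and 494 CPM in uninduced transduced cells, against 789, 764 and 879 CPM in controls (log2 fold change −0.75 ± 0.10, adjusted p = 0.00012, and a log2 fold change of −0.49 with the offset). Col11a1, a minor fibrillar chain, had 16.7, 18.5 and 18.9 CPM in uninduced transduced cells, against 1.95, 3.02 and 2.55 CPM in controls (log2 fold change 2.77 ± 0.20, adjusted p = 2.74e-06), and Col8a1, a network collagen chain, had a log2 fold change of 1.44 ± 0.14.

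Of 31 remodelling enzymes tested, 9 were up and 12 down, against 34.4% and 33.6% of all tested genes. With the offset 16 were up and 8 down. The median log2 fold change was −0.12 without the offset and 0.31 with it. Adamts5, an aggrecanase, had 204, 228 and 229 CPM in uninduced transduced cells, against 15.9, 20.9 and 23.7 CPM in controls (log2 fold change 3.38 ± 0.14, adjusted p = 2.14e-07). P4ha3, a prolyl hydroxylase subunit, had 15.8, 15.8 and 15.7 CPM in uninduced transduced cells, against 5.50, 3.84 and 6.11 CPM in controls (log2 fold change 1.54 ± 0.20, or 2.37 with the offset). Mmp9, gelatinase B, had 0.470, 0.355 and 0.728 CPM in uninduced transduced cells, against 7.66, 7.15 and 8.42 CPM in controls (log2 fold change −3.94 ± 0.31), and Timp1, an inhibitor of such proteases, had 37.4, 29.5 and 25.4 CPM in uninduced transduced cells, against 127, 109 and 117 CPM in controls (log2 fold change −1.995 ± 0.16). For each of these 4 genes the groups did not overlap.

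Genes of the immediate early and serum response, which growth factors switch on within minutes, mostly fell. Of 30 tested, 23 fell and 0 rose, against 33.6% and 34.4% of all tested genes. The median log2 fold change was −1.63. With the offset 17 fell and 3 rose, and the median was −0.53. Nr4a1, a nuclear receptor gene, had 18.5, 18.2 and 18.5 CPM in uninduced transduced cells, against 98.99, 139 and 119 CPM in controls (log2 fold change −2.76 ± 0.14, adjusted p = 3.72e-07, and a log2 fold change of −1.79 with the offset). Ier3 had 10.04, 9.94 and 7.82 CPM in uninduced transduced cells, against 69.7, 71.6 and 76.9 CPM in controls (log2 fold change −3.04 ± 0.14, adjusted p = 2.61e-07), and Myc had 71.9, 34.1 and 48.4 CPM in uninduced transduced cells, against 186, 201 and 201 CPM in controls (log2 fold change −1.98 ± 0.25, adjusted p = 0.000146, and a log2 fold change of −1.28 with the offset). Fosl1, an AP-1 subunit gene with 45.0% of its 31-base words in no other gene, had a log2 fold change of −3.65 ± 0.41, and Junb, another AP-1 subunit, one of −1.73 ± 0.13, or −0.53 with the offset. Egr1 had 112, 88.1 and 94.6 CPM in uninduced transduced cells, against 185, 337 and 403 CPM in controls (log2 fold change −1.71 ± 0.26, or −0.87 with the offset), and its call was lost with the offset (adjusted p = 0.0683). Fos had 3.52, 5.68 and 2.001 CPM in uninduced transduced cells, against 2.93, 3.89 and 6.78 CPM in controls, which overlap (adjusted p = 0.439).

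Cytokine, chemokine and NF-kB genes numbered 4 up and 12 down of 26, against 34.4% and 33.6% of all tested genes. The median log2 fold change was −0.58. With the offset 5 rose and 15 fell, with a median of −0.47. Ccl2, a monocyte attractant, had 22.3, 25.3 and 17.01 CPM in uninduced transduced cells, against 129, 105 and 106 CPM in controls (log2 fold change −2.47 ± 0.16, adjusted p = 1.71e-06). Its neighbours on chromosome 11, Ccl7 and Ccl8, had log2 fold changes of −1.48 ± 0.13 (−2.59 with the offset) and −2.98 ± 0.36 (−4.68 with the offset). Against these, Ptx3, a secreted pattern recognition protein, had 5.64, 8.88 and 2.55 CPM in uninduced transduced cells, against 1.03, 1.15 and 1.01 CPM in controls (log2 fold change 2.32 ± 0.44, adjusted p = 0.00102). Spp1, the secreted phosphoprotein osteopontin, had 309, 262 and 268 CPM in uninduced transduced cells, against 2681, 2947 and 2834 CPM in controls (log2 fold change −3.40 ± 0.12, adjusted p = 7.45e-08).

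Interferon-induced genes, which cells switch on against viruses, changed in both directions. In the list 13 of 29 tested rose, against 34.4% of all tested genes, and 5 fell, against 33.6%. The median log2 fold change was 0.34. With the offset 16 rose and 3 fell, with a median of 0.65. Ifit1, an RNA-binding antiviral effector, had 45.4, 61.002 and 55.1 CPM in uninduced transduced cells, against 4.83, 3.36 and 4.81 CPM in controls (log2 fold change 3.55 ± 0.18, adjusted p = 4.56e-07). Oasl2 had 16.9, 8.46 and 17.3 CPM in uninduced transduced cells, against 3.75, 2.84 and 3.18 CPM in controls, and Parp14 had 20.1, 19.5 and 22.8 CPM in uninduced transduced cells, against 6.07, 6.87 and 5.49 CPM in controls. Their log2 fold changes were 2.07 ± 0.29 and 1.69 ± 0.16. Members that fell included Bst2, the membrane tether tetherin, with −1.60 ± 0.27, and Ifi27, with −1.16 ± 0.19. Of the 29, 8 lay outside all 9 control-plasmid libraries of the series on the side of their call, against 57.5% of all tested genes. Ifit1 itself spanned 3.36 to 43.3 CPM over those 9 libraries. Of 15 tested sensors of foreign nucleic acid, 8 rose and 4 fell, against 34.4% and 33.6% of all tested genes. The median was 0.38, and with the offset 10 rose and 1 fell, with a median of 0.53.

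Genes of retinoid metabolism changed in both directions. Retinoic acid is made by oxidation of retinol in 2 steps and cleared by CYP26 enzymes. Aldh1a1 (chr19:20492715-20643465), which makes retinoic acid from retinal, had 128, 139 and 111 CPM in uninduced transduced cells, against 2.26, 3.02 and 2.93 CPM in controls (log2 fold change 5.44 ± 0.16, adjusted p = 3.39e-08), and its paralogue Aldh1a7 had 35.5, 30.8 and 31.3 CPM in uninduced transduced cells, against 1.80, 2.16 and 2.89 CPM in controls (log2 fold change 3.76 ± 0.20, adjusted p = 5.01e-07). Cyp26b1, which degrades retinoic acid, had 12.7, 22.1 and 15.1 CPM in uninduced transduced cells, against 2.21, 1.92 and 1.88 CPM in controls (log2 fold change 2.96 ± 0.24). Dhrs3, which reduces retinal back to retinol, had a log2 fold change of 1.60 ± 0.14. In the other direction, Rdh10, which oxidises retinol, had 7.52, 4.14 and 5.46 CPM in uninduced transduced cells, against 60.99, 55.7 and 61.5 CPM in controls (log2 fold change −3.40 ± 0.20, adjusted p = 9.82e-07). Crabp1, a retinoic acid binding protein of the cytosol, had 33.9, 26.99 and 31.7 CPM in uninduced transduced cells, against 326, 286 and 289 CPM in controls (log2 fold change −3.35 ± 0.14, adjusted p = 1.61e-07). Stra6, the retinol uptake receptor, had a log2 fold change of −2.20 ± 0.28 (−1.27 with the offset). Ptges, the inducible prostaglandin E synthase, had 18.9, 20.95 and 20.7 CPM in uninduced transduced cells, against 143, 136 and 134 CPM in controls (log2 fold change −2.85 ± 0.10, adjusted p = 8.87e-08). The list of prostaglandin and retinoid enzymes counted 6 up and 10 down of 19, against 34.4% and 33.6% of all tested genes. Its median was −0.54. With the offset 6 rose and 6 fell, with a median of −0.09.

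Growth control genes fell for the most part: 3 rose and 10 fell of 16 tested, against 34.4% and 33.6% of all tested genes. The median log2 fold change was −1.30. With the offset 2 rose and 12 fell, with a median of −0.46. Ccnd1, the G1 cyclin that growth factors induce, had 120.2, 121 and 109 CPM in uninduced transduced cells, against 247, 263 and 284 CPM in controls (log2 fold change −1.25 ± 0.10, adjusted p = 5.64e-06), whereas Ccnd2, its paralogue, had 315, 337 and 353 CPM in uninduced transduced cells, against 121, 147 and 139 CPM in controls (log2 fold change 1.23 ± 0.10, adjusted p = 6.60e-06). Cdk4, their kinase partner, had a log2 fold change of −1.54 ± 0.13 (−0.82 with the offset). Cdkn1a and Cdkn2c, which encode kinase inhibitors, had −1.46 ± 0.12 (−0.64 with the offset) and −1.55 ± 0.13 (−0.48 with the offset). Of DNA replication genes 18 of 33 fell and 3 rose, against 33.6% and 34.4% of all tested genes. The median was −0.51. With the offset 5 rose and 16 fell, with a median of −0.20. Histone mRNAs, which S phase cells make, were higher. Rrm2, the ribonucleotide reductase subunit of S phase, had 55.7, 54.1 and 53.05 CPM in uninduced transduced cells, against 147, 159 and 149 CPM in controls (log2 fold change −1.55 ± 0.10). Among mitosis genes 6 rose and 15 fell of 30, against 34.4% and 33.6% of all tested genes. The median was −0.35, and with the offset 5 rose and 13 fell, with a median of −0.20. Mki67, the proliferation marker, had 805, 635 and 741 CPM in uninduced transduced cells, against 185, 267 and 246 CPM in controls (log2 fold change 1.58 ± 0.16, adjusted p = 1.67e-05, and a log2 fold change of 0.85 with the offset), and Ube2c, the ubiquitin-conjugating enzyme of mitotic exit, had 16.5, 14.6 and 10.3 CPM in uninduced transduced cells, against 114, 109 and 109 CPM in controls (log2 fold change −3.06 ± 0.17, adjusted p = 7.01e-07).

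The Hedgehog pathway, which the series studies, showed a mixed pattern. Hedgehog ligands bind Ptch1, which releases Smo and lets the Gli factors act, and Gli1 and Ptch1 are themselves targets. Of 27 tested components, 6 rose and 11 fell, against 34.4% and 33.6% of all tested genes. With the offset 11 rose and 5 fell, against 35.6% and 28%. The medians were −0.15 and 0.14. Gas1 (chr13:60174405-60177365), a coreceptor for the ligands, had 25.96, 15.03 and 24.01 CPM in uninduced transduced cells, against 110.4, 107 and 114 CPM in controls (log2 fold change −2.40 ± 0.19, adjusted p = 4.65e-06, and a log2 fold change of −1.34 with the offset). Smo (chr6:29735503-29761365) had 319, 362 and 442 CPM in uninduced transduced cells, against 275, 241 and 241 CPM in controls (log2 fold change 0.49 ± 0.13, adjusted p = 0.00687, and a log2 fold change of 1.48 with the offset), and without control replicate 3 its log2 fold change was 0.40 and missed the threshold. Disp1, which releases ligand from producing cells, had 45.5, 40.7 and 46.9 CPM in uninduced transduced cells, against 21.1, 21.4 and 22.04 CPM in controls (log2 fold change 0.98 ± 0.12, or 1.64 with the offset).

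The transcription factors of the pathway differed from each other. Gli3 (chr13:15463235-15730026), mainly a repressor, had 74.7, 71.98 and 69.7 CPM in uninduced transduced cells, against 28.6, 42.5 and 39.1 CPM in controls (log2 fold change 0.90 ± 0.14, adjusted p = 0.000322, and a log2 fold change of 0.49 with the offset). Gli1 (chr10:127329882-127341974) had 2.11, 3.55 and 2.001 CPM in uninduced transduced cells, against 5.97, 6.77 and 5.48 CPM in controls (log2 fold change −1.35 ± 0.28, adjusted p = 0.00165), and its call was lost with the offset (−0.35). Gli2 (chr1:118834132-119053619), the main activator, had 18.7, 27.7 and 20.6 CPM in uninduced transduced cells, against 19.2, 22.8 and 22.5 CPM in controls, which overlap (log2 fold change −0.03 ± 0.16, adjusted p = 0.874). With the offset Gli2 was called higher, at 0.50 (adjusted p = 0.00712). Ptch1 (chr13:63508328-63573598) had 25.1, 39.5 and 30.03 CPM in uninduced transduced cells, against 16.3, 25.9 and 25.6 CPM in controls, and the difference did not pass the test (adjusted p = 0.104).

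Prrx1 (chr1:163245119-163313710), the gene of the transduced construct, had 919.7, 988 and 1116 CPM in uninduced transduced cells, against 466, 624 and 629.7 CPM in controls (log2 fold change 0.74 ± 0.13, adjusted p = 0.000623). The groups did not overlap, and the call was lost with the GC and length offset (log2 fold change 0.12, adjusted p = 0.223). Counts from the construct and from the endogenous gene were not separated. Its paralogue Prrx2 (chr2:30834972-30881251) had 5.81, 1.07 and 3.82 CPM in uninduced transduced cells, against 26.4, 23.8 and 22.9 CPM in controls (log2 fold change −2.73 ± 0.40, adjusted p = 0.000359, and a log2 fold change of −1.65 with the offset). Over 34 tested transcription factors of mesenchyme and limb, 17 rose and 10 fell, against 34.4% and 33.6% of all tested genes. The median was 0.37. With the offset 17 rose and 8 fell, with a median of 0.29. Snai1 and Snai2, zinc finger factors of the epithelial to mesenchymal transition, moved apart: Snai1 had 15.1, 8.05 and 9.55 CPM in uninduced transduced cells, against 91.1, 86.6 and 88.8 CPM in controls (log2 fold change −3.05 ± 0.22, adjusted p = 3.00e-06, and a log2 fold change of −1.96 with the offset), and Snai2 had 49.5, 50.3 and 53.5 CPM in uninduced transduced cells, against 14.2, 19.9 and 19.2 CPM in controls (log2 fold change 1.46 ± 0.14, adjusted p = 1.55e-05). Sox9, a chondrogenic factor, had a log2 fold change of −2.33 ± 0.11, Twist2 one of −1.97 ± 0.14, and Shox2, a limb factor, one of 1.19 ± 0.12. Hox genes counted 8 up and 2 down of 20, against 34.4% and 33.6% of all tested genes. With the offset they counted 11 up and 0 down, and the medians were 0.25 and 0.86. Hoxb4 and Hoxb6 had log2 fold changes of 1.95 ± 0.48 and 1.59 ± 0.24 (2.47 with the offset).

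Growth factor and receptor genes numbered 10 up and 15 down of 30, against 34.4% and 33.6% of all tested genes, so the share that rose was near that of all genes. The median was −0.39. With the offset 8 rose and 14 fell, with a median of −0.04. Fgf2, a fibroblast mitogen, had 5.80, 8.87 and 7.45 CPM in uninduced transduced cells, against 52.4, 76.7 and 73.7 CPM in controls (log2 fold change −3.29 ± 0.19, adjusted p = 8.21e-07). Egfr, the EGF receptor, had 47.98, 72.4 and 56.4 CPM in uninduced transduced cells, against 12.1, 21.8 and 19.9 CPM in controls (log2 fold change 1.64 ± 0.21, adjusted p = 0.000105, and a log2 fold change of 0.72 with the offset), and Fgf10, a mesenchymal ligand of limb outgrowth, had a log2 fold change of 1.35 ± 0.14 (0.88 with the offset). In the TGF-beta and BMP list 12 rose and 7 fell of 27, against 34.4% and 33.6% of all tested genes. The median was 0.23, and with the offset 14 rose and 8 fell, with a median of 0.48. Its ligand gene Tgfb2 had 28.4, 29.95 and 39.4 CPM in uninduced transduced cells, against 2.88, 3.58 and 2.69 CPM in controls (log2 fold change 3.34 ± 0.19, adjusted p = 7.64e-07), and Id3, a BMP target gene, had a log2 fold change of 1.57 ± 0.30.

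**Figure D4:**
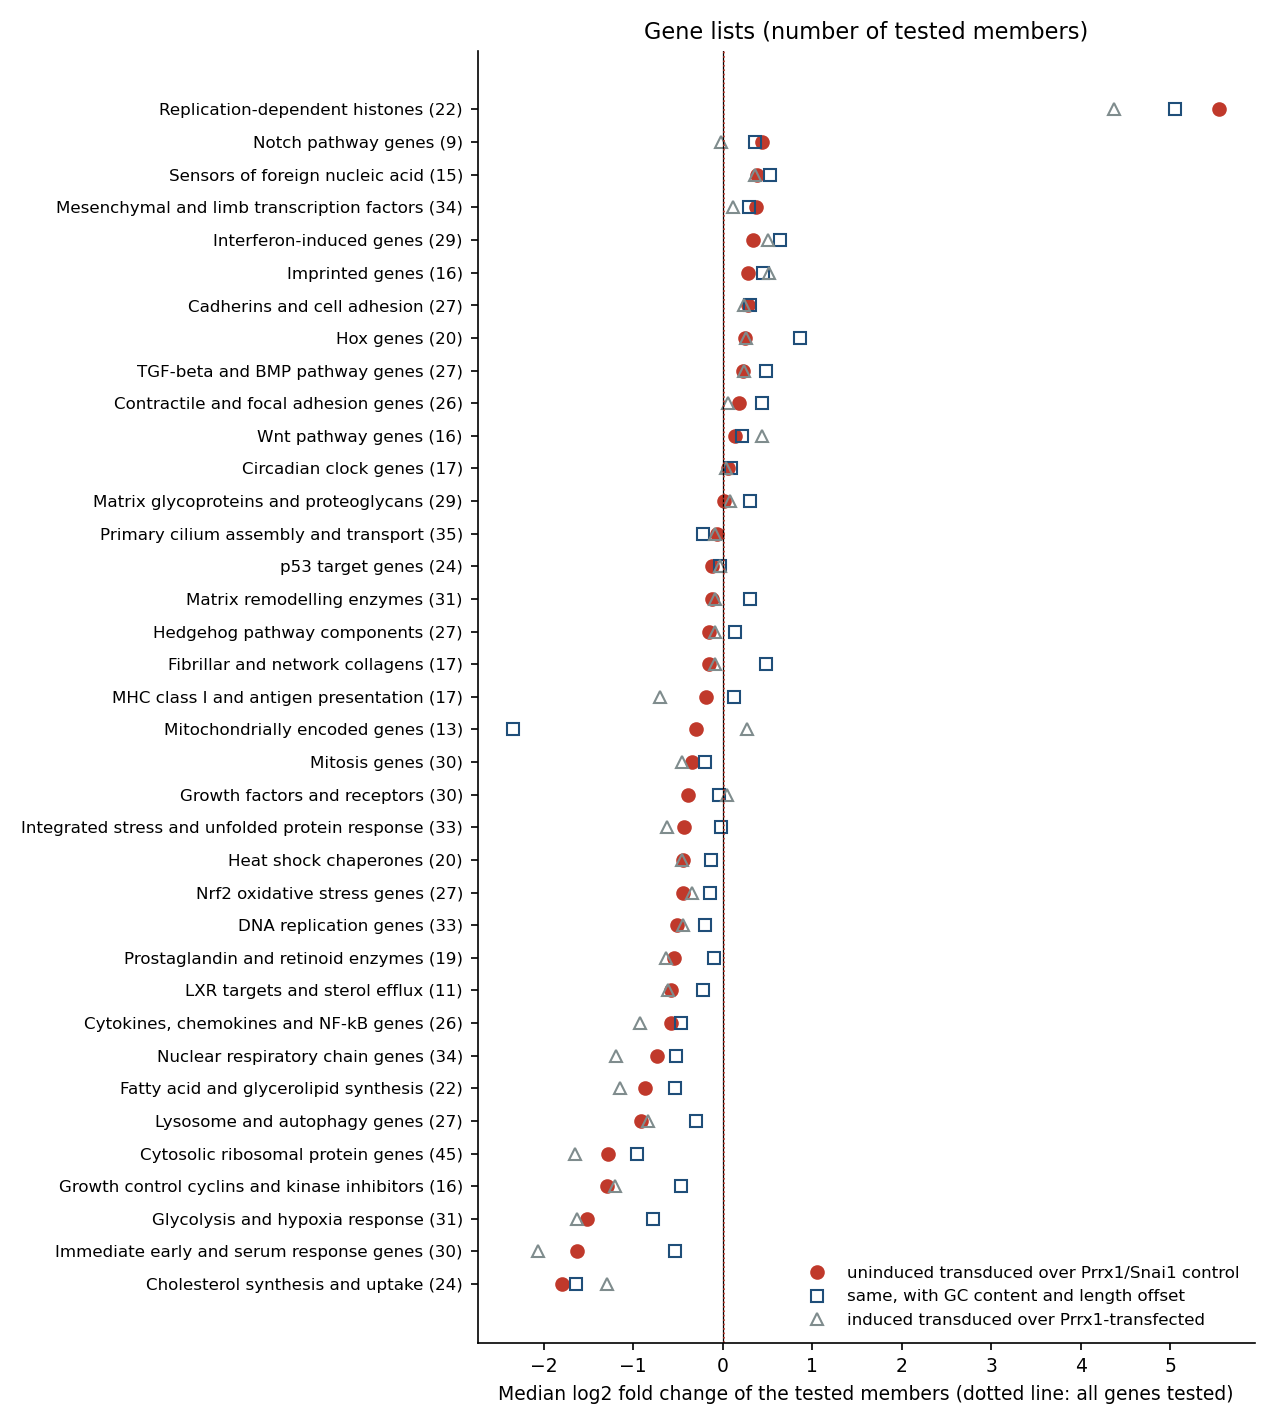
Median log2 fold change of the gene lists with at least 5 tested members, cell type markers left out (number of tested members in brackets) for uninduced transduced cells over controls, for the same with the GC content and length offset, and for induced transduced over Prrx1-transfected cells; the dotted line marks the median of all tested genes, 0.02. In uninduced transduced cells without the offset, the histone list stands at 5.55 and the lists of cholesterol synthesis and immediate early genes at −1.79 and −1.63. The mitochondrially encoded list moves to −2.34 with the offset, against −0.30 without.

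The same 2 preparations can be compared a second time, in induced transduced cells against Prrx1-transfected cells, where both sides carry added Prrx1. Only the transduced side is labelled as given doxycycline. Prrx1 level, doxycycline and delivery therefore cannot be told apart in a difference between the 2 comparisons. There, 11056 of 13868 genes (79.7%) were called. Of 13387 genes tested in both, 8512 were called in both in the same direction and 56 in opposite directions. That is 93.5% of the 9107 called in the uninduced comparison and 79.7% of the 10686 called in the induced one. Across these genes, which are not independent replicates, the log2 fold changes had a Pearson r of 0.923 and a Spearman rank correlation of 0.937. The induced comparison also ran with GC content and length. Its median was 1.24 in the lowest GC decile, −0.95 in the highest and 0.81 in the decile of the longest genes. The part of these trends in the agreement was not tested. Histones had a median of 4.36 in the induced comparison, cholesterol genes one of −1.29 and glycolytic and hypoxia genes one of −1.63.

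A difference between the 2 comparisons passed the test for 612 of 15218 genes (4.02%). Prrx1 itself had 3793, 3863 and 4139.8 CPM in induced transduced cells against 14191, 14277 and 18766 CPM in Prrx1-transfected cells, a log2 fold change of −2.13 ± 0.11, opposite in direction to the uninduced one. Cck had 5.03, 6.57 and 8.07 CPM in induced transduced cells against 37.5, 33.7 and 51.97 CPM in Prrx1-transfected cells, a log2 fold change of −2.74 where the uninduced comparison gave −7.84. Aldh1a1 had 659.8, 656 and 735 CPM in induced transduced cells against 3.69, 3.76 and 2.54 CPM in Prrx1-transfected cells (log2 fold change 7.55). Gli2 was not called in the uninduced comparison without the offset. It had 67.4, 62.6 and 58.1 CPM in induced transduced cells against 21.3, 20.8 and 21.1 CPM in Prrx1-transfected cells (log2 fold change 1.44 ± 0.08). Ccnd1 showed the reverse case, with a log2 fold change of 0.02 in the induced comparison (adjusted p = 0.796).

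**Figure D5:**
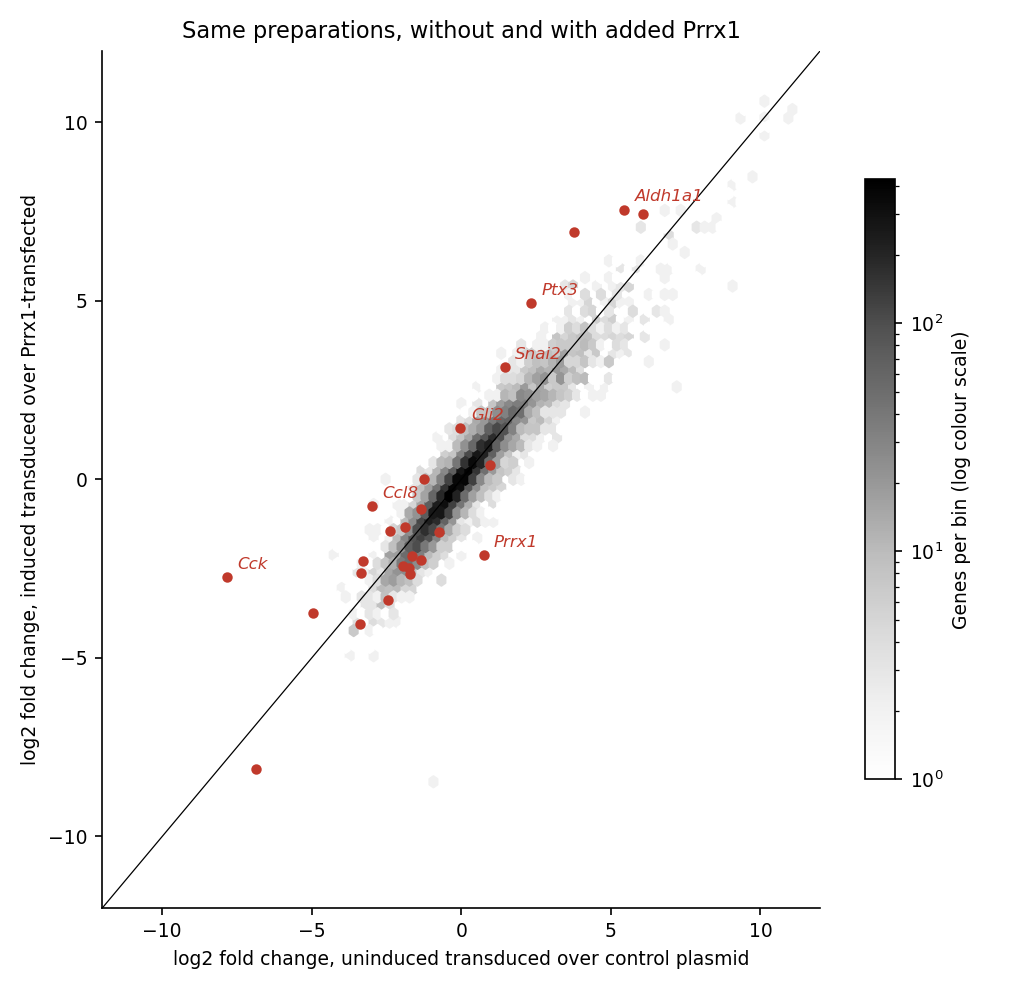
Log2 fold change of each gene tested in both comparisons, uninduced transduced over control (horizontal) and induced transduced over Prrx1-transfected (vertical); grey hexagons count genes on a log scale, the line is equality, and genes beyond 12 on either axis are not shown. Red points are genes described in the text whose difference between the comparisons passed the test, such as Cck at −7.84 and −2.74 and Prrx1 at 0.74 and −2.13, and the other genes lie mostly along the line.

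Olfactory receptor genes, the receptors of odour neurons, mostly rose among those tested. Of 1407 in the annotation 198 passed the filter, and a gene that is high only in uninduced transduced cells passes through that group alone, so the count describes those that passed. Of these, 164 rose and 4 fell, with a median log2 fold change of 2.87, and with the offset 130 rose and 11 fell, with a median of 1.88. They had a median of 90.7% of their 31-base words in no other gene. A window of 10 Mb on chromosome 2, from 80 to 90 Mb, held 43 of them and had a median of 1.43 over its 76 tested genes with the offset. Over 222 such windows with at least 20 tested genes, medians with the offset ran between −0.54 and 2.98, with quartiles of −0.06 and 0.26. The highest, on chromosome 13 from 20 to 30 Mb, holds a cluster of histone genes. Chromosome 3 had the lowest chromosome median with the offset, −0.20, and had −0.05 without it, where chromosome 19 was lowest at −0.31. With the offset, 5 windows of chromosome 3 were the lowest 5 of the 222.

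Markers of cell types were checked against the labelled fibroblasts. Their part in the results above was not tested. Summed fibroblast markers were 17408 to 20181 CPM in uninduced transduced cells and 20791 to 22623 CPM in controls, with 2 of 15 tested members higher and 9 lower and a median log2 fold change of −0.31. With the offset 6 were higher and 6 lower, with a median of 0.10. The other marker lists had 2 to 5 tested members and are given by their sums. Calls are added where every sum in uninduced transduced cells was higher. Immune markers summed to 17.2 to 23.9 CPM in uninduced transduced cells and 32.9 to 39.7 CPM in controls, with Tyrobp at 0 in all 6 libraries. Endothelial markers summed to 18.9 to 27.7 CPM in uninduced transduced cells and 4.89 to 5.82 CPM in controls, with Cldn5, Emcn and Sox17 at 0. Of the 3 endothelial markers tested, 2 were called higher and 1 lower. Muscle markers summed to 13.02 to 23.5 CPM in uninduced transduced cells and 15.7 to 16.9 CPM in controls, with Myog, Myf5 and Pax7 at 0. Cartilage and bone markers summed to 385 to 430.1 CPM in uninduced transduced cells and 2958 to 3274 CPM in controls, mostly from Spp1, with Alpl at 0. Adipocyte markers summed to 30.97 to 32.7 CPM in uninduced transduced cells and 9.14 to 12.9 CPM in controls, with Adipoq, Cebpa and Lep at 0. Of the 2 adipocyte markers tested, 1 was called higher and 1 lower. Epithelial markers summed to 1.57 to 2.65 CPM in uninduced transduced cells and 2.60 to 3.36 CPM in controls, with Krt5, Cldn3 and Cldn4 at 0, and neural markers to 8.09 to 11.9 CPM in uninduced transduced cells and 17.8 to 20.5 CPM in controls, with Sox2 at 0.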

How the data were processed

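Bulk RNA sequencing of 30 libraries in 10 groups of 3 was analysed, and grouping followed the labels. The deposited tables were made by the authors with kallisto 0.43.0 against mm10, per the submitters' processing notes. Per the file headers they hold, for each transcript, its length, an effective length in bases (other), an estimated count and a TPM value. Read layout, strand and annotation are not given in the sources used here. Of 118491 targets per table, 116816 matched GENCODE release M21, 2 were added sequences and 1673 stayed out. Estimated counts were summed per gene and rounded, and CPM is per 1000000 of that sum.

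Genes passing filterByExpr (minimum count 10, total 15) were tested with edgeR 4.0.16 (R 4.3.3): TMM scaling, robust quasi-likelihood test, Benjamini-Hochberg adjustment over all tested genes, threshold 0.05. Errors of log2 fold changes are SE from the F statistic. The fit was tested on simulated data. The interaction fit gave the difference between the 2 comparisons of preparations. Alternatives were DESeq2 1.42.0, limma 3.58.1 on log2(TPM + 1) or log2(TPM + 0.1), other scalings and filters, thinning, offsets for GC content, length or effective length, protein-coding transcripts only, all 30 libraries in 1 fit, a replicate block and each library left out. Estimated counts carry an assignment error that intervals and floors leave out.

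The members and gene lists were chosen with earlier results of these data known. Named genes were the pathway genes of the design, the 15 protein-coding genes of greatest rise and fall with at least 5 CPM and no overlap, and called list members, up to 5 each way. Other named list members were picked by role, and exceptions are marked.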

Additional observations from a re-analysis of the deposited data

Results flagged for a closer look

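For the genes below, the log2 fold change in the uninduced comparison differed from that in the induced comparison of the same 2 preparations, by the edgeR interaction test with adjusted p under 0.05. Values here are the uninduced log2 fold change minus the induced one. Prrx1 differed by 2.84, with added Prrx1 on both sides of the induced comparison only and doxycycline on its transduced side only. Among genes called lower in uninduced transduced cells, the difference was −5.12 for Cck, −2.27 for Ccl8, −1.30 for Ccnd1, −1.26 for Rgs16, −1.04 for Fgf2, −0.97 for Gas1, −0.76 for Crabp1, −0.58 for Sqle and −0.55 for Hmgcs1. It was positive, which is a smaller fall than in the induced comparison, for Sema7a (1.22), Junb (0.91), Tnc (0.89), GFP (0.86), Vegfa (0.69), Col3a1 (0.69), Spp1 (0.61), Slc2a1 (0.48) and Ldha (0.43). Among genes called higher, the rise was smaller than in the induced comparison for Aldh1a7 (−3.19), Aldh1a1 (−2.14), Ptx3 (−2.64), Snai2 (−1.72) and Gm20594 (−1.37), and greater for Pdia4 (0.52). Gli2, not called in the uninduced comparison without the GC and length offset, differed by −1.51.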

How the results depend on the processing

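Leaving out each of the 6 libraries gave 8638 to 10165 called genes. Of 152 named results, 101 could be run in all 21 settings, and 89 of those kept direction and side of the threshold in each. The others had no value in 1 to 4 settings, and the setting limited to genes with at least 90% of 31-base words of their own held 108 results. Values of the other sign, where that value or the reported one was called, were −0.00467 for Calr with protein-coding transcripts only, −0.0464 for Car9 with effective lengths, and for Col1a1, Gli2, Fn1 and H2afx 0.74, 0.79, 0.0126 and 0.0232 with a GC offset and 0.57, 0.50 for Col1a1 and Gli2 and 0.27 for H2afx with GC and length. Where neither was called they were 0.0041 to 0.0599 for Col1a1 in 4 settings, 0.17 to 0.89 for Fos in 4, 0.0033 to 0.40 for Gli2 in 10, 0.0064 to 0.19 for Hist2h3c1 in 3 and −0.27 for Ptch1 with GC and length. Called log2 fold changes moved by over 1.5 times for 37 genes with GC and length, 23 with GC and 7 with effective lengths. On log2(TPM + 1) and log2(TPM + 0.1) 34 and 18 moved. These understate low genes, but genes at higher levels moved too. On log2(TPM + 0.1), Slc2a1, Vegfa, Zyx and Dlk1 shrank to −1.01, −0.80, −0.84 and −1.79. Calr, Disp1 and Pfkfb3 grew to 3.06, 1.83 and 2.96. Fn1 was also 0.41 with effective lengths and 0.67 on log2 TPM with either pseudocount. The cause was not tested where the construction does not show it. Replicate numbers did not pair samples (correlations of same-numbered deviations 0.08, 0.03 and 0.02). The replicate block gave 9351 called genes, 2079 between Jun and Egr1 and Prrx1 and Snai1 controls and 1403 between Srebf2 and those controls, and with a GC offset log2 fold changes of 0.74, 0.80, 0.0208 and 0.0157 for Col1a1, Gli2, Fn1 and H2afx. Calls between control sets ranged from 1717 to 5204 for Jun and Egr1 and from 333 (without Srebf2 control replicate 2) to 3771 for Srebf2 on leaving out 1 library. Of 43 list medians, 5 took the other sign with GC and length. Median log2 fold changes over all genes were 0.21 and 0.22 on log2(TPM + 1) and log2(TPM + 0.1) and 0.36 with no filter. The shallowest library, uninduced replicate 2, limits genes near 0 counts. With the 6 libraries thinned to its depth, 8426 of 12539 tested genes were called.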

Other observations

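Chaperones of the endoplasmic reticulum, lysosomal genes, imprinted genes and contractile genes were not described above. In the list of the integrated stress and unfolded protein response 7 rose and 17 fell of 33 tested. Of all tested genes 34.4% rose and 33.6% fell. The list had a median log2 fold change of −0.43. With the GC and length offset 12 rose and 10 fell, with a median of −0.02. Hsp90b1, the GRP94 chaperone, had 2809, 2297 and 2732 CPM in uninduced transduced cells, against 1084, 1333 and 1355 CPM in controls (log2 fold change 0.99 ± 0.13, or 0.64 with the offset), and Pdia4, a disulfide isomerase, one of 0.95 ± 0.12. Calr, calreticulin, had 3416, 4296 and 4372 CPM in uninduced transduced cells, against 1071, 1043 and 1026 CPM in controls (log2 fold change 1.87 ± 0.11), 2.81 with an effective-length offset, and −0.00467 when protein-coding transcripts alone were summed, so its rise lay in other annotated transcripts. Lysosome and autophagy genes counted 1 up and 19 down of 27, against 34.4% and 33.6% of all tested genes. The median was −0.92, and with the offset 8 rose and 14 fell, with a median of −0.30. The cathepsin gene Ctsl had 438, 230.2 and 258 CPM in uninduced transduced cells, against 1411, 1237 and 1232 CPM in controls (log2 fold change −2.13 ± 0.25), and Ctsb one of −1.48 ± 0.12.

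Imprinted genes, expressed from 1 parental copy, counted 7 up and 4 down of 16, against 34.4% and 33.6% of all tested genes. With the offset 6 rose and 4 fell. The median log2 fold change was 0.29 without the offset and 0.45 with it. Dlk1, a Notch ligand-like protein gene, had 36.004, 31.4 and 25.2 CPM in uninduced transduced cells, against 240.5, 221 and 224 CPM in controls (log2 fold change −2.95 ± 0.15), Igf2, the growth factor gene, had −1.97 ± 0.10 (−1.25 with the offset) and Peg3, a zinc finger gene, 1.96 ± 0.14. Contractile and focal adhesion genes counted 12 up and 9 down of 26, against 34.4% and 33.6% of all tested genes, with a median of 0.18. With the offset 17 rose and 6 fell, with a median of 0.44. Fhl1, a LIM domain protein gene of muscle, had 9.79, 11.3 and 7.80 CPM in uninduced transduced cells, against 0.720, 0.920 and 1.37 CPM in controls (log2 fold change 3.17 ± 0.30), while Zyx, the focal adhesion protein zyxin, had 346, 343 and 307 CPM in uninduced transduced cells, against 778, 797 and 777 CPM in controls (log2 fold change −1.31 ± 0.10, or −0.38 with the offset).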
